A study of Mus musculus with 4 samples.

Results

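The genes described here are 36 genes of mitosis and the G2/M transition, picked by gene symbol from a list of cyclins, kinases, checkpoint proteins, motors and other parts of the dividing cell. All 36 were found among the 43379 gene entries that could be read. Their mRNA was measured by RNA sequencing in satellite cells, the resident stem cells of muscle, from C57BL/6 mice that were 4 weeks old. HDAC4 KO cells came from HDAC4fl/fl Pax7CE/+ Cre mice given tamoxifen (TMX), and control cells came from mice of that same genotype given vehicle. The cells were sorted by flow cytometry and kept for 24 h in growth medium, and each group held 2 libraries, numbered 3 and 4. The Cre recombinase, fused to an estrogen receptor domain, sits in the Pax7 gene, so cells of both groups carried floxed HDAC4 and a single working Pax7 allele. TMX and the loss of HDAC4 cannot be told apart in these libraries, since no library came from TMX-treated mice without Cre. The labels do not say which animals stand behind each library, so every p-value measures only the spread between these samples, which may be technical.

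A cell enters mitosis when cyclin B activates the kinase CDK1. Aurora and Polo kinases then build the spindle, the checkpoint kinases hold back anaphase until every chromosome is attached, and the anaphase-promoting complex destroys cyclin B and securin so that the cell can divide. Most of these genes are transcribed late in the cell cycle, held down in resting cells and switched on together through promoter elements named the CHR (cell cycle genes homology region) and the CCAAT box. Satellite cells rest in uninjured muscle and re-enter the cell cycle when they are activated, so this program marks their proliferation. HDAC4 is a class IIa histone deacetylase that acts with repressor complexes on chromatin.

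None of the 36 genes was called changed in HDAC4 KO cells. The groups were compared with limma, a linear model with a spread shared across genes, on log2(FPKM + 1), and a gene was called at a Benjamini-Hochberg adjusted p below 0.05. FPKM is the number of sequenced fragments of a gene scaled to its transcript length and to the mapped total of its library. The smallest adjusted p among the 36 was 0.363 for Pttg1, the gene of securin, and the largest was 0.988 for Top2a. In this comparison, 0 of the 36 also had an unadjusted p below 0.05 in limma. Among the settings that kept all 4 libraries, 1 was lower at that threshold with median-ratio scaling, 1 lower with quantile normalization and 1 higher among protein-coding genes alone. Unadjusted counts with a library left out are not given, since a group then holds a lone library. At an adjusted p below 0.05, 0 were called with the other settings tried. Their log2 differences, HDAC4 KO minus control, ran from -0.32 in Bub1 to 0.29 in Pttg1 and had a median of -0.05. All 36 of the 95% intervals held 0, and all 36 lay inside a log2 difference of 1 in either direction.

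The background was as follows. Of the 12112 genes tested by limma, 0% were called higher and 0% lower at an adjusted p below 0.05, while 11% were higher and 3.66% lower at an unadjusted p below 0.05. When protein-coding genes alone were tested together, 1.02% were called higher and 0.0564% lower, none of them among the 36. A difference below 0 was found in 25 of the 36 genes (69.4%), against 42.6% of all genes tested. That background share depends on the scaling: it was 51.4% with median-ratio scaling and 51.9% with quantile normalization, with 26 of the 36 below 0 in each. In 12 of the 36 (33.3%) both HDAC4 KO libraries lay below both controls, against 17.6% of all genes. In 6 of the 36 (16.7%) both lay above both controls, against 30.9% of all genes, and in the remaining 18 the groups overlapped. The median of -0.05 stood beside a median of 0.04 over all genes tested. Without control 3, 19 of the 36 differences were above 0 and 17 below, with a median of 0.03, while 42% of all genes were below 0. That shift lay mainly in the longer genes, at a split of 4000 bases chosen after the values were seen. The HDAC4 KO mean was above control 4 in 10 of the 11 genes with a transcript of at least 4000 bases, against 2206 of 3686 such protein-coding genes tested. It was above control 4 in 9 of the 25 shorter ones, against 4092 of 6933. Over those 25, the median log2 ratio of the HDAC4 KO mean was -0.05 over control 3 and -0.06 over control 4. Yet Kif23 (3398 bases) and Hmmr (3892 bases) also turned above 0 without control 3. In bulk RNA, fewer dividing cells and less of an mRNA per dividing cell cannot be told apart.

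**Figure D1:**
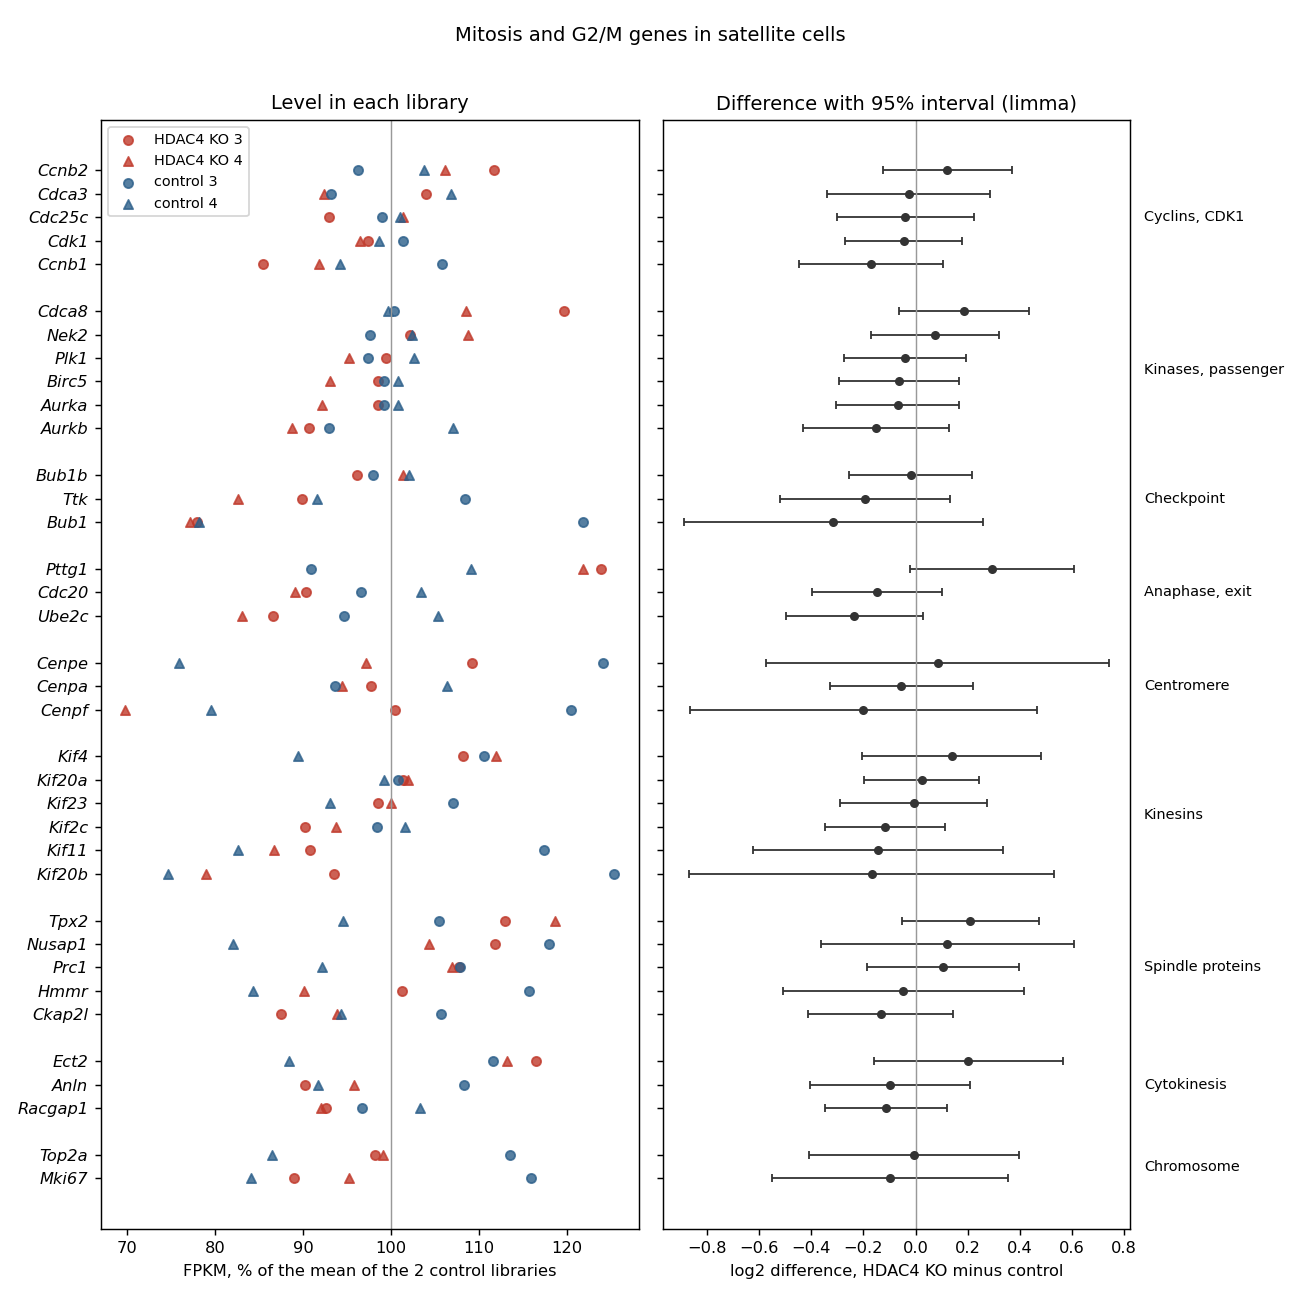
The left panel plots each library's FPKM as a percent of the mean of the 2 control libraries for that gene, with HDAC4 KO in red and control in blue, circles for replicate 3 and triangles for replicate 4. The right panel plots the log2 difference, HDAC4 KO minus control, with its 95% interval from limma, and every one of the 36 intervals crosses 0.

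Hdac4 itself, the targeted gene (ENSMUSG00000026313, chromosome 1, 91928779 to 92180341 on GRCm38, the build of all positions given here), stood at 29.0% and 43.3% of the control mean in HDAC4 KO 3 and 4, against 92.6% and 107% in control 3 and 4. Both HDAC4 KO libraries lay far below both controls. The log2 difference was -1.13 ± 0.19 (SE), with an adjusted p of 0.180 in limma. Satellite cell markers were present in every library: Pax7, the factor that defines these cells, was at 17.1 FPKM in both HDAC4 KO libraries, against 18.4 and 21.4 FPKM in the controls, and the myogenic factor Myod1 was at 563 and 530.0 FPKM against 633 and 833 FPKM. Of the 10 satellite cell markers tested, 3 (30%) had both HDAC4 KO libraries below both controls, 4 (40%) had both above and 3 overlapped. Over all genes tested, 17.6% had both below and 30.9% both above. The blood cell gene Ptprc was below 0.03 FPKM in all 4 libraries. Control 3 stood apart for muscle fibre mRNA. The 9 fibre markers with a settled level summed to 630.3 and 725 FPKM in HDAC4 KO, against 2144 FPKM in control 3 and 768 FPKM in control 4, and the 6 such blood cell markers to 3.67 and 5.34 FPKM against 32.0 and 3.74 FPKM. Smooth muscle and pericyte markers (6 genes) summed to 109 and 133 FPKM in HDAC4 KO against 63.6 and 53.4 FPKM, fibro-adipogenic markers (4 genes) to 55.2 and 53.6 FPKM against 30.8 and 24.2 FPKM, glial markers (5 genes) to 14.9 and 12.1 FPKM against 6.48 and 3.89 FPKM, and endothelial markers (5 genes) to 3.42 and 4.44 FPKM against 5.87 and 2.17 FPKM. By gene, the median log2 difference was 1.16 over the 4 smooth muscle and pericyte markers tested (3 above 0), 0.13 over the 6 fibro-adipogenic ones (4 above 0, and 4 of the 6 with overlapping groups), 0.91 over the 5 glial ones (5 above 0) and 0.24 over the 4 endothelial ones (3 above 0). Of the 4 blood cell markers tested, 2 had both HDAC4 KO libraries above both controls (50%, against 30.9% of all genes tested). The groups overlapped for the other 2, and the median log2 difference of the 4 was -0.61. All 4 fibre markers tested were below 0, with a median of -1.19, and the groups overlapped for 3 of them. The part of these cell types in the values of the mitosis genes was not tested.

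For 21 of the 36 genes the level in FPKM could be settled, and for the other 15 only the ratios between libraries. For those 15, values are therefore given as a percent of the control mean, the mean of the 2 control libraries for that gene. Over the 36 genes, the median of these percents was 98.3% in HDAC4 KO 3, 95.2% in HDAC4 KO 4, 103% in control 3 and 96.6% in control 4. HDAC4 KO 3, HDAC4 KO 4, control 3 and control 4 were the highest library for 4, 5, 16 and 11 of the 36 genes. In the same order, they were the lowest for 6, 12, 4 and 14. The HDAC4 KO medians thus lay on either side of control 4 and below control 3.

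Among the cyclins and CDK1, the kinase gene Cdk1 (ENSMUSG00000019942, chromosome 10, 69336635 to 69352938) was among the most abundant of the 21 genes with a settled level, at 249 and 247 FPKM in HDAC4 KO against 259 and 252 FPKM in control. The groups did not overlap, yet the log2 difference was only -0.04, with a 95% interval of -0.27 to 0.18. Ccnb1, which encodes the cyclin B1 partner of CDK1, was at 60.3 and 64.8 FPKM in HDAC4 KO against 74.6 and 66.5 FPKM in control, a log2 difference of -0.17 ± 0.11 (SE). Its other partner gene Ccnb2 lay on the opposite side, at 112% and 106% of the control mean in HDAC4 KO against 96.3% and 104% in control. Both HDAC4 KO libraries were above both controls for Ccnb2, and the log2 difference was 0.12 ± 0.09 (SE). Cdc25c, a phosphatase that activates CDK1, was at 92.9% and 101% against 99.0% and 101%, and Cdca3, which takes part in the breakdown of the CDK1 inhibitor WEE1, was at 145 and 128 FPKM against 129.6 and 149 FPKM. In Cdc25c and Cdca3 the groups overlapped.

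None of the mitotic kinase genes passed the test. Plk1, the Polo-like kinase of mitotic entry and spindle assembly, was at 86.7 and 83.0 FPKM in HDAC4 KO against 85.0 and 89.5 FPKM in control. Aurka, the Aurora kinase of the spindle poles, was at 69.2 and 64.8 FPKM against 69.7 and 70.8 FPKM, a log2 difference of -0.07 ± 0.09 (SE). Nek2, a centrosome kinase, was at 30.5 and 32.5 FPKM against 29.2 and 30.6 FPKM. The chromosomal passenger complex, which corrects faulty attachments of chromosomes, had members on both sides of 0. Its kinase Aurkb was at 55.1 and 53.9 FPKM in HDAC4 KO against 56.5 and 65.1 FPKM in control, and its subunit survivin, encoded by Birc5, at 153 and 144 FPKM against 154 and 156 FPKM. Its subunit borealin, encoded by Cdca8, was at 119.6% and 109% of the control mean in HDAC4 KO against 100.3% and 99.7% in control. Both HDAC4 KO libraries were the higher ones for Cdca8 and the lower ones for Aurkb and Birc5, with log2 differences of 0.19, -0.15 and -0.06.

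The 3 spindle checkpoint genes had differences below 0, of which none passed. Bub1, a checkpoint kinase at the kinetochore (ENSMUSG00000027379, chromosome 2, 127801122 to 127831865), had the lowest difference of the 36. It was at 15.1 and 15.0 FPKM in HDAC4 KO, against 23.7 FPKM in control 3 and 15.2 FPKM in control 4. The gap between the controls was thus far larger than the gap between HDAC4 KO and control 4. The log2 difference was -0.32 ± 0.22 (SE), with a 95% interval of -0.89 to 0.26, and was -0.01 without control 3 and -0.62 without control 4. Ttk, the MPS1 kinase, was at 89.9% and 82.5% of the control mean against 108% and 91.6%. Bub1b, the gene of BUBR1, which blocks the anaphase-promoting complex, was at 96.1% and 101% against 98.0% and 102%.

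At anaphase onset the 3 genes split. Pttg1 (ENSMUSG00000020415, chromosome 11, 43420250 to 43426251) encodes securin, which holds separase in check until anaphase, and had the highest difference of the 36. It was at 124% and 122% of the control mean in HDAC4 KO, against 90.9% and 109% in control. The HDAC4 KO libraries agreed closely and lay above both controls, which differed from each other more. The log2 difference was 0.29 ± 0.12 (SE), with a 95% interval of -0.02 to 0.61. Ube2c (ENSMUSG00000001403, chromosome 2, 164769898 to 164778822) is the ubiquitin-conjugating enzyme that works with the anaphase-promoting complex, and it ran the other way: 246 and 235 FPKM in HDAC4 KO, against 268 and 299 FPKM in control. Its log2 difference was -0.24 ± 0.10 (SE), with a 95% interval of -0.50 to 0.03 and an adjusted p of 0.378 in limma. Cdc20, the activator of the same complex, was at 90.3% and 89.1% of the control mean against 96.6% and 103%, with a log2 difference of -0.15. Both HDAC4 KO libraries lay below both controls for Ube2c and Cdc20.

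At the centromere and kinetochore the groups overlapped for all 3 genes. Cenpa, the histone H3 variant that marks the centromere, was at 151 and 145 FPKM in HDAC4 KO against 144 and 164 FPKM in control. Cenpe, a kinetochore motor, was at 109% and 97.1% of the control mean against 124% and 75.9%, and the kinetochore protein gene Cenpf was at 100.5% and 69.8% against 120.5% and 79.5%. Cenpe and Cenpf had wide intervals, -0.57 to 0.74 and -0.87 to 0.46, since their replicates stood far apart.

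The 6 kinesin motor genes had log2 differences from -0.17 to 0.14. Kif11, which encodes the EG5 motor that pushes spindle poles apart, was at 20.7 and 19.7 FPKM in HDAC4 KO against 26.7 FPKM in control 3 and 18.8 FPKM in control 4. Kif2c, a microtubule depolymerase at the centromere, was at 36.1 and 37.5 FPKM against 39.3 and 40.6 FPKM, the only kinesin gene of the 6 with both HDAC4 KO libraries below both controls. Kif4, a motor on chromosome arms, was at 18.7 and 19.4 FPKM against 19.1 and 15.5 FPKM. Kif23, a motor of the central spindle, was at 28.5 and 28.9 FPKM against 30.9 and 26.9 FPKM. Kif20a, which works in cytokinesis, was the most even of the kinesins, at 101% and 102% of the control mean against 101% and 99.2%, and its difference of 0.02 turned to -0.03 with median-ratio scaling and to -0.05 with quantile normalization. Its relative Kif20b was at 93.5% and 78.9% against 125% and 74.6%, with the highest and the lowest value both in control.

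Of the 5 spindle proteins, 3 had differences above 0. Tpx2, which activates Aurora A on the spindle (ENSMUSG00000027469, chromosome 2, 152847964 to 152895321), was at 113% and 119% of the control mean in HDAC4 KO against 105% and 94.5% in control. Both HDAC4 KO libraries lay above both controls, and the log2 difference was 0.21 ± 0.10 (SE), with a 95% interval of -0.05 to 0.47. Prc1, which bundles microtubules of the central spindle, was at 108% and 107% against 108% and 92.1%. Nusap1, which stabilizes spindle microtubules, was at 13.3 and 12.4 FPKM against 14.0 and 9.73 FPKM. Hmmr, a microtubule-binding protein, was at 19.7 and 17.5 FPKM against 22.5 and 16.4 FPKM, and Ckap2l, the gene of the spindle protein radmis, was at 21.2 and 22.8 FPKM against 25.6 and 22.9 FPKM. For Nusap1 and Hmmr the HDAC4 KO values lay between the 2 control values.

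In cytokinesis, Ect2 encodes the exchange factor that activates RhoA at the division plane (ENSMUSG00000027699, chromosome 3, 27097222 to 27153878). It was at 116% and 113% of the control mean in HDAC4 KO against 112% and 88.4% in control, a log2 difference of 0.20 ± 0.14 (SE) that was 0.37 without control 3 and 0.04 without control 4. Racgap1, which recruits ECT2 to the central spindle, was at 92.6% and 92.0% against 96.7% and 103%, on the opposite side. Anln, the gene of the contractile ring protein anillin, was at 49.8 and 52.9 FPKM against 59.8 and 50.6 FPKM, and its groups overlapped. Of the genes of chromosome structure, Top2a, which untangles sister chromatids, was at 139 and 140.4 FPKM against 161 FPKM in control 3 and 122 FPKM in control 4. Mki67, which encodes the proliferation marker Ki-67 on mitotic chromosomes, was at 24.2 and 25.8 FPKM against 31.5 and 22.8 FPKM. For both, the HDAC4 KO values fell between the controls, and the log2 differences of -0.01 and -0.10 turned to 0.19 and 0.13 without control 3.

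A pattern among the 36 genes ran between the 2 controls rather than between the groups. Across the 36, the log2 ratio of control 3 over control 4 followed the length of the longest coding transcript (Pearson r = 0.78, Spearman rho = 0.80). The same relation in the HDAC4 KO libraries had r = 0.23 and rho = -0.04, and the difference between the groups had r = -0.11. These correlations run across genes of the same 4 libraries, which are not independent replicates, and are given as a description. All 11 of the genes of at least 4000 bases, among them Cenpf, Mki67, Cenpe, Kif20b and Top2a, were higher in control 3 than in control 4, by a median of 1.31-fold. The HDAC4 KO mean lay above control 4 for 10 of these 11 and above control 3 for 2. Among the 3686 protein-coding genes of that length tested, it lay above control 4 for 2206 and above control 3 for 1798. Of the 25 shorter genes, 10 were higher in control 3, against 2768 of 6933 shorter protein-coding genes tested. The split at 4000 bases was chosen after the values were seen.

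Over the 10619 protein-coding genes tested, the relation of control 3 over control 4 with length was weaker, with r = 0.12 and rho = 0.23, and 2126 of 3686 genes of at least 4000 bases were higher in control 3. Over the same 10619 genes, HDAC4 KO 3 over HDAC4 KO 4 ran the other way, with r = -0.24 and rho = -0.34. Control 3 was also the library with the high fibre marker sum, 2144 FPKM, and the part of that difference in the length pattern was not tested. Bub1 shows how far the pair of controls could part in a shorter gene: its transcript has 3421 bases, and control 3 was 1.56-fold above control 4.

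**Figure D2:**
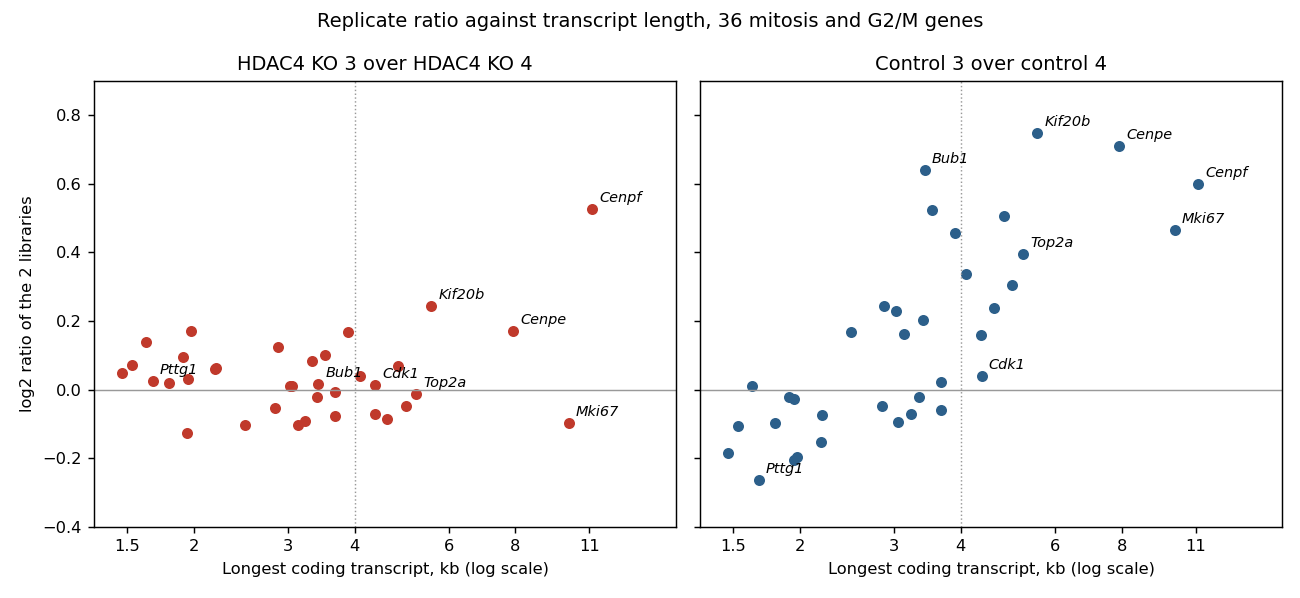
Each point is 1 of the 36 genes, with the length of its longest coding transcript in kb on a log axis and the log2 ratio of the 2 libraries of a group on the vertical axis, HDAC4 KO on the left and control on the right, and the dotted line at 4 kb. All 11 genes to the right of that line lie above 0 in control, with Kif20b and Cenpe at 0.75 and 0.71, while the HDAC4 KO points scatter around 0 except for Cenpf at 0.53.

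The promoters were read for what the 36 genes share in sequence. RefSeq promoter windows on GRCm38.p6, 300 bases each from 250 before to 50 after the start site, were at hand for 32 of the 36 genes, in 34 windows. The CHR was searched as TTTGAA or TTCGAA and the CCAAT box as CCAAT, on both strands. Windows are shown for the highest and the lowest genes in log2 difference that the RefSeq table holds, Pttg1 and Ect2, then Bub1 and Ube2c, and for Ccnb2, which was added after its matches were seen because it carries both elements near the start site. Ect2 has 2 windows in that table, of which 1 is shown. Each is printed in the direction of its gene, with matches in capitals. A match on the opposite strand reads TTCAAA or ATTGG, and CCAATTGG in Ube2c is a pair of overlapping CCAAT matches, 1 on each strand.
Pttg1, chr11:43425932-43426231 (minus strand): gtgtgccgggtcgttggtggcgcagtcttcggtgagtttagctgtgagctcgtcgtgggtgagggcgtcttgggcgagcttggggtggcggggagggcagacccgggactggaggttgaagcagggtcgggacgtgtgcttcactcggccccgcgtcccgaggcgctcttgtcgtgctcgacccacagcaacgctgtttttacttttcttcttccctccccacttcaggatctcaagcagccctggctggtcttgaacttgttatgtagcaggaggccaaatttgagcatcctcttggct
Ect2, chr3:27153829-27154128 (minus strand): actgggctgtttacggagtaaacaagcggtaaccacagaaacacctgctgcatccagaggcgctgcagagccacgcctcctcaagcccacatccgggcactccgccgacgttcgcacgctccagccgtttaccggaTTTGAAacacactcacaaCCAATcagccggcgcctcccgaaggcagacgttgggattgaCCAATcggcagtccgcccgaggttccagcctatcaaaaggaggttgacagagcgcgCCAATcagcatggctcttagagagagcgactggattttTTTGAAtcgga
Bub1, chr2:127831810-127832109 (minus strand): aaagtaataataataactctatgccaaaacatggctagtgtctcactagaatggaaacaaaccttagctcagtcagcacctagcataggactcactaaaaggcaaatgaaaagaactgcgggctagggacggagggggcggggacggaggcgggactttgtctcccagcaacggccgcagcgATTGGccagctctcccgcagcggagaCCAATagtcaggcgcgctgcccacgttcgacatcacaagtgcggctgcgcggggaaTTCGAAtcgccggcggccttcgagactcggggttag
Ube2c, chr2:164769679-164769978 (plus strand): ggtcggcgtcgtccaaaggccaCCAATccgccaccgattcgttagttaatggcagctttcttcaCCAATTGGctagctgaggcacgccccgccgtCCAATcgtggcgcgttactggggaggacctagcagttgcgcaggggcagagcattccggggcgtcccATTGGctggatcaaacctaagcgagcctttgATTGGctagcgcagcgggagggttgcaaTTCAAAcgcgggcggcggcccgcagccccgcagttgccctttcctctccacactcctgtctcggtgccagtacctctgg
Ccnb2, chr9:70421505-70421804 (minus strand): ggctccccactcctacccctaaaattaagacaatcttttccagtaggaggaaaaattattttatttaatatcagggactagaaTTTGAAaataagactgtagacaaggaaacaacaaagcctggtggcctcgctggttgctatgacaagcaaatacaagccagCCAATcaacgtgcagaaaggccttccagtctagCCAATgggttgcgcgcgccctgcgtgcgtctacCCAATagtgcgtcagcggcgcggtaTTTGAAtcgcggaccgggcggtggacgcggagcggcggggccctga

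Counted from the first base of the window, with the start site at 251, the CHR letters lay at bases 290 to 295 and 137 to 142 in Ect2, at 265 to 270 in Bub1, at 255 to 260 and 84 to 89 in Ccnb2, and on the opposite strand at 222 to 227 in Ube2c. Pttg1, the gene with the highest difference, held neither element in its window, which says only that these letters are not there. That window reaches up to base 43426231 and lies wholly inside the gene's entry, which ends at 43426251. Pttg1 is on the minus strand, so the sequence upstream of that end was not searched. Both Bub1 and Ube2c, which had the lowest differences, and Ect2, which was among the highest, held both elements. Of the 32 genes, 26 (81.3%) had a CHR match, against 21.7% of the 27025 genes in the RefSeq table, and 26 (81.3%) had a CCAAT match, against 41.1%. Both elements stood in 1 window for 23 of the 32 (71.9%), against 8.61% of all genes. The genes without a CHR match were Ccnb1, Cenpe, Birc5, Nusap1, Nek2 and Pttg1, and Top2a held the most, with 4 CHR and 6 CCAAT matches in its window. Of the 40 CHR matches, 29 (72.5%) lay in the last 100 bases of the window, around the start site, against 25.2% of the matches of all genes. These matches are letters in a sequence, not shown binding sites.

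**Figure D3:**
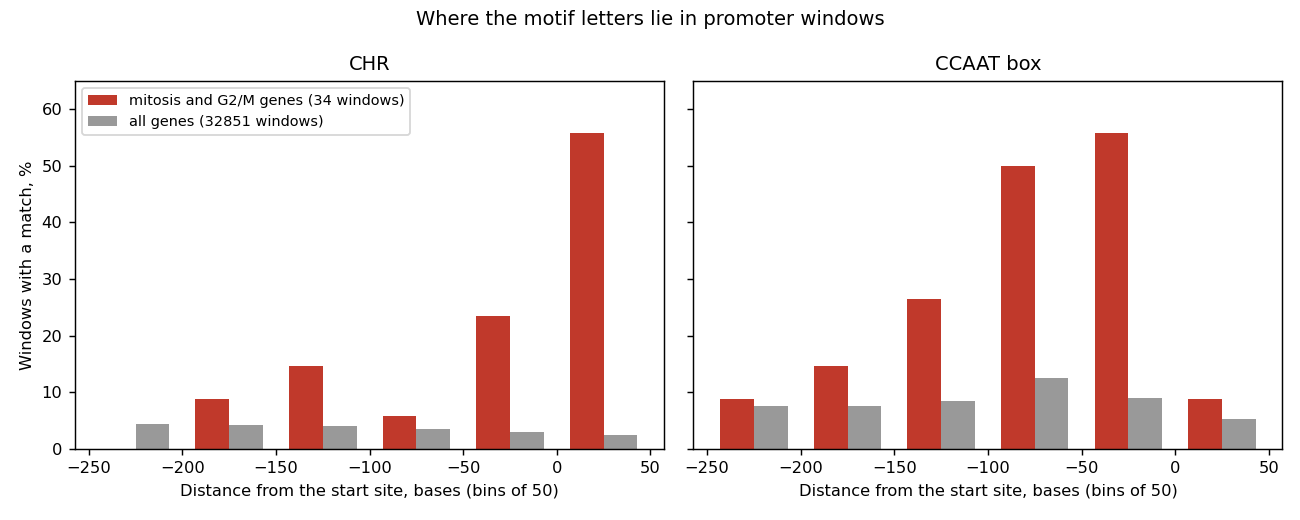
The bars give the percent of promoter windows with a match in each bin of 50 bases by distance from the start site, for the windows of the mitosis and G2/M genes in red and of all genes in grey. CHR matches of the red set peak in the 50 bases from the start site on (55.9% of windows against 2.46%), and CCAAT matches in the 50 bases before it (55.9% against 9.03%).

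The genes of factors known to act on G2/M transcription leaned below 0, though none passed. Among 20 tested regulators, 0 were called by limma, 2 were lower and 0 higher at an unadjusted p below 0.05, and the median log2 difference was -0.08. Of all genes tested, 3.66% were lower and 11% higher at that threshold. Of the 20, 15 were below 0 (75%), against 42.6% of all genes tested. Both HDAC4 KO libraries lay below both controls for 6 (30%) and above both for 0, against 17.6% and 30.9% of all genes. Foxm1, the forkhead activator of mitotic genes, was at 88.1% and 93.6% of the control mean in HDAC4 KO against 96.8% and 103% in control, a log2 difference of -0.14 ± 0.09 (SE). Mybl2, the B-MYB subunit of the activating complex, was at 96.8% and 94.5% against 95.9% and 104%. Nfya, a subunit of the NF-Y factor that binds CCAAT boxes, was at 27.7 and 27.2 FPKM against 33.7 and 32.8 FPKM, with a log2 difference of -0.27 ± 0.09 (SE) and an adjusted p of 0.295 in limma. Rbbp4, a histone-binding subunit of the DREAM complex, was at 115% and 108% against 85.9% and 114%, and had the smallest p of the regulators above 0.

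A list of 65 further genes of the mitotic machinery, all tested, gave 0 calls, with 4 genes higher and 2 lower at an unadjusted p below 0.05 in limma. At that threshold 11% of all genes tested were higher and 3.66% lower. The median of the 65 was -0.09, with 47 below 0 (72.3%), against 42.6% of all genes tested. Zwint, a kinetochore gene, had the smallest p of those above 0, at 126 and 125 FPKM in HDAC4 KO against 98.2 and 96.9 FPKM in control, a log2 difference of 0.36 ± 0.08 (SE) with an adjusted p of 0.228 in limma. Next were Ckap2, a spindle protein gene, at 121% and 128% of the control mean against 102% and 97.9%, and Incenp, the scaffold of the chromosomal passenger complex, at 57.9 and 57.6 FPKM against 46.8 and 49.3 FPKM. Incenp thus lay on the side of Cdca8 and opposite to Aurkb and Birc5, which belong to the same complex. On the other side, Ccna2, the cyclin A2 gene, was at 81.4 and 85.2 FPKM against 109 and 96.2 FPKM. Sgol1, the shugoshin that protects cohesion at the centromere, was at 77.9% and 78.2% of the control mean against 107% and 92.9%, and Fbxo5, the gene of the EMI1 inhibitor of the anaphase-promoting complex, at 66.8% and 85.3% against 107% and 92.7%. The HDAC4 KO libraries did not overlap the controls in any of these 6 genes, which largely follows from picking them by the smallest p. Over the 65, both HDAC4 KO libraries lay above both controls for 10 (15.4%), against 30.9% of all genes tested. Both lay below for 16 (24.6%), against 17.6%, and the groups overlapped for 39.

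**Figure D4:**
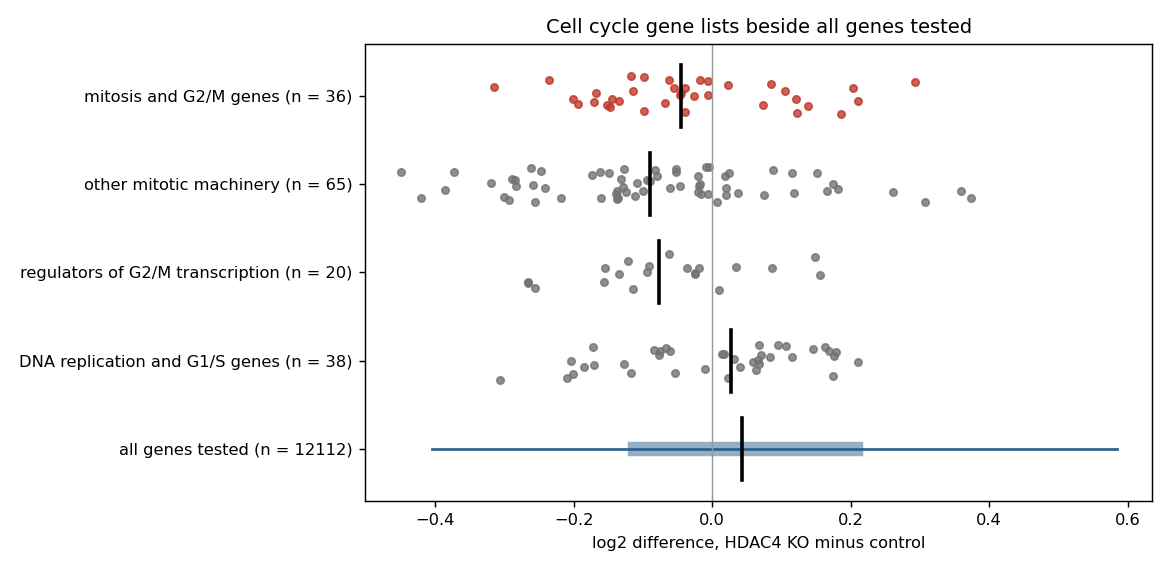
Each point is the log2 difference, HDAC4 KO minus control, of 1 gene, for the 36 mitosis and G2/M genes in red and for 3 other cell cycle lists in grey, with a black line at each list's median. For all 12112 genes tested the thick bar spans the 25th to 75th and the thin line the 5th to 95th percentile, and the median of 0.04 lies to the right of the -0.05 of the mitosis genes.

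The genes of DNA replication and the G1/S transition, 38 of 40 tested, had a median of 0.03, with 22 above 0. The other 16 were below 0 (42.1%), against 42.6% of all genes tested. Limma called 0 of the 38, with 0 higher and 1 lower at an unadjusted p below 0.05, against 11% higher and 3.66% lower of all genes tested. Lig1, the replication ligase, was at 59.3 FPKM in both HDAC4 KO libraries against 49.0 and 53.3 FPKM, and Pold1, the catalytic subunit of DNA polymerase delta, at 80.5% of the control mean in both against 101% and 98.7%. Of the 7 CDK inhibitor genes, 0 were called by limma, with 1 higher and 2 lower at an unadjusted p below 0.05, against the same shares of all genes. The paper picked P21, the product of Cdkn1a, as a candidate from its sequencing of these libraries. Using PCR and samples other than these, the paper also reported more P21 mRNA in HDAC4 KO cells. It reported less in myotubes given a form of HDAC4 that stays in the nucleus. In the libraries used here, Cdkn1a was at 441 and 516 FPKM in HDAC4 KO against 271 and 351 FPKM in control. Its log2 difference of 0.63 ± 0.17 (SE) had an adjusted p of 0.250 in limma. Cdkn1b, the gene of P27, was at 59.5% and 67.4% against 100.2% and 99.8%, a log2 difference of -0.59 ± 0.11 (SE) with an adjusted p of 0.187 in limma. Both differences were further from 0 than that of any of the 36 mitosis genes.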

How the data were processed

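For each library, the authors deposited FPKM values per gene and their confidence bounds, made with Cufflinks after trimming with cutadapt and alignment to GRCm38 with TopHat. CASAVA 1.8.2 handled the raw reads, per the submitters' processing notes. They also deposited a Cuffdiff table of group FPKM that pools the libraries of a group, with a log2 fold change, a test statistic, a p-value and a q-value. These 4 comparison columns were not used. FPKM do not give the read depth of a library, so no counting interval is given.

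Decimal points were missing from 11871, 11900, 11812 and 11652 of the 43496 deposited FPKM entries of HDAC4 KO 3, HDAC4 KO 4, control 3 and control 4. They were placed so that each value lay midway between its bounds (tolerance 4e-05 of the upper bound). The library values also had to give the authors' group FPKM (tolerance 0.006 on the log10 scale). The remaining powers of 10 were weighed by the width of the bounds, by how common each level was and by a long-tailed prior on the group ratio. That prior favoured placements in which HDAC4 KO and control were alike. Genes whose ratios between libraries were not settled with a probability of 0.95 were left out (62), as were 277 without a fitting placement. When the power of 10 of each group was hidden for 596 known genes, 595 ratios passed and all 595 were right. The ratio between libraries of the same group was held fixed in that check, so its placing was not checked. The weighing alone was less reliable for levels: of 81 hidden levels with a probability of at least 0.95, 75 were right (92.6%). It was therefore not used to settle a level. Levels were settled by the deposited digits, which left only 1 power of 10, for 10 of the 36 genes. They were settled by the least possible width of the bounds for 11. Of 3042 genes of known level, 11 (0.362%) lay below that width. The digits settled 0 of the 596 hidden genes, so that route was not checked. The width settled 100 of the hidden levels, all 100 of them rightly, but 99 were at 100 FPKM or above and only 1 lower, so it is hardly checked at the 15.0 to 89.5 FPKM of those 11 genes. Where the level is open, the pseudocount can move a log2 difference slightly.

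The 12112 genes that averaged 1 FPKM or more were fitted on log2(FPKM + 1) in limma 3.58.1 (R 4.3.3, trended prior), and p-values were adjusted over all of them. Adding 1 shrinks the difference of low genes. With 2 libraries against 2, the smallest p of an exact two-sided permutation test is 0.333, and no such test was run. The 36 genes and the other lists were chosen with earlier results of these data known. Named beside the 36 were Hdac4, the 3 genes of the other mitotic machinery with the smallest p in each direction, Foxm1, Mybl2 and 1 regulator in each direction, and 1 gene in each direction of the G1/S and CDK inhibitor lists. Promoters were those of the 2 highest and 2 lowest of the 36 in the RefSeq table outside chromosome 18, and Ccnb2. Alternatives were another pseudocount, filter, scaling or gene set, a replicate block, and leaving out each library.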

Additional observations from a re-analysis of the deposited data

How the results depend on the processing

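No member of the 36 genes was called higher or lower under any alternative run, and the median log2 difference ran from -0.11 (quantile normalization) to -0.05 with all 4 libraries, and from -0.07 to 0.03 when a library was left out. The labels share replicate numbers between the groups but do not say that they pair samples, and deviations of HDAC4 KO 3 and control 3 had a correlation of -0.11 across 12112 genes. With the replicate number as a block, the count called among the 36 stayed at 0 and the median at -0.05, while 1 gene was called higher and 7 lower over all genes. Over all genes, limma called 13 higher and 9 lower without a pseudocount, 0 and 5 with a pseudocount of 0.1, 9 and 9 at a mean of at least 5 FPKM, 109 and 6 among protein-coding genes, and 1 and 58 without control 4, against 0 and 0 in the main comparison. Directions turned for 17 of the 36 genes. With all 4 libraries only Kif20a turned, at -0.033 with median-ratio scaling and -0.054 with quantile normalization. When libraries were left out, the log2 difference ran from -0.20 to 0.19 in Top2a, -0.32 to 0.13 in Mki67, -0.39 to 0.10 in Kif11, -0.54 to 0.20 in Kif20b, -0.10 to 0.091 in Kif23, -0.47 to 0.068 in Cenpf, -0.26 to 0.17 in Hmmr, -0.22 to 0.019 in Anln, -0.055 to 0.019 in Bub1b, -0.0057 to 0.28 in Kif4, -0.15 to 0.037 in Cenpa, -0.27 to 0.43 in Cenpe, -0.12 to 0.36 in Nusap1, -0.12 to 0.072 in Cdca3, -0.0072 to 0.22 in Prc1 and -0.10 to 0.019 in Cdc25c. Among genes that kept their direction, it ran from -0.62 to -0.01 in Bub1, 0.04 to 0.37 in Ect2, 0.17 to 0.42 in Pttg1, 0.13 to 0.29 in Tpx2 and -0.31 to -0.16 in Ube2c. The cause was not tested. A lone library was assumed to vary like the other group. With 2 libraries a group, the printed intervals are not adjusted for the number of genes and are not limits of detection. The interval of Hdac4, -1.63 to -0.63, did not hold 0, yet its adjusted p was 0.180 in limma. Intervals that hold 0 do not show that the groups were equal.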
